A study of Mus musculus with 32 samples.

Results

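Mouse fat pads hold more than adipocytes, and 8 genes grouped as epithelial or mammary markers were followed through them: the keratin genes Krt7, Krt8, Krt14 and Krt79, the kappa-casein gene Csn3, the tight-junction gene Cldn7, the transcription factor gene Trps1 and the epiplakin gene Eppk1. They were chosen by symbol, with earlier results of these data known. A direction that they share is therefore not an independent result. All 8 were listed in at least 1 of the 3 adipose tables, which together list 2480 genes that the authors called as changed. Female inguinal fat listed 6 of them (Krt7, Krt8, Csn3, Cldn7, Trps1 and Krt79), male inguinal fat 2 (Krt79 and Eppk1) and male perigonadal fat 4 (Krt7, Krt14, Krt79 and Eppk1). Every one of these 12 entries was lower in AKO. For comparison, of all genes the authors tested they called 5.83% in female inguinal fat (2.63% lower and 3.20% higher in AKO), 8.56% in male inguinal fat (4.01% lower and 4.54% higher) and 11.1% in male perigonadal fat (5.46% lower and 5.68% higher). Among the listed genes alone, 45.1% were lower in female inguinal, 46.9% in male inguinal and 49.0% in male perigonadal fat. Each table holds called genes and no others, so genes missing from a table have no value there, and their levels were not analysed here.

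The libraries were poly(A) RNA of C57BL/6 mice with loxP-flanked Bcl6 alleles. Mice that also carried Cre under the adiponectin promoter (Bcl6 fl/fl;Adipoq-Cre) are the adipocyte knockouts, AKO. Mice without Cre (Bcl6 fl/fl) are WT. Both genotypes therefore carried the floxed alleles, no group had Cre alone, and the labels used here state no ages. There were 4 AKO and 4 WT libraries each of female inguinal fat, male inguinal fat and male perigonadal fat. The 8 male animal numbers are the same for both male depots, while the females are other animals. Inguinal fat had counts for each library, while perigonadal fat was read from the authors' comparison alone. Totals in the listed genes ran from 864592 to 4072659 counts in female and from 592820 to 2603509 in male libraries. Recovered size factors, a measure of relative depth, ran from 1.15 to 1.59 in female AKO and from 0.402 to 1.02 in female WT libraries, without overlap (exact permutation test, two-sided, p = 0.0286). In males they ran from 0.760 to 1.74 in AKO and from 0.373 to 1.16 in WT (exact permutation p = 0.114). The targeted gene did not check the labels: Bcl6 counts in females ran from 2295 to 2800 in AKO and from 988 to 1442 in WT libraries (edgeR log2 fold 1.16 ± 0.12 SE), and the counts do not separate deleted exons. AKO below means the libraries so labelled. The adipocyte gene Adipoq was abundant in both female groups, at 66846 ± 5567 normalized counts in AKO and 47614 ± 2527 in WT (SD, n = 4 each).

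The female inguinal pad of the mouse surrounds a mammary gland, a tree of ducts made of an inner luminal layer and an outer basal layer. Luminal cells are marked by the simple-epithelium keratins encoded by Krt8 and Krt7, and basal cells by the keratin encoded by Krt14. Milk proteins such as kappa-casein are made by luminal cells. Adult males have little or no mammary duct, and perigonadal fat of males lies against the epididymis and is covered by mesothelium, a lining that also makes simple keratins. In bulk tissue, fewer cells of a type and less RNA per cell cannot be told apart. Nor do bulk counts show which cells of the pad made the RNA of any of these genes, Trps1 included.

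Of these genes, 5 lie on chromosome 15 (mm10). Krt7 (101411043 to 101430313), Krt79 (101929332 to 101940324) and Krt8 (101996698 to 102004482) lie within 593440 bases of the type II keratin cluster, a span that holds 25 keratin genes. Eppk1 (76101481 to 76120195) and Trps1 (50654752 to 50890463) lie apart from it. Krt14 (100203162 to 100207548) and Cldn7 (69964779 to 69967885) are on chromosome 11, and Csn3 (87925579 to 87932665) is on chromosome 5. RefSeq promoter windows (GRCm38.p6, 250 bases before to 50 after an annotated start) matched 5 of the 8 genes: Krt7, Krt8, Krt14, Krt79 and Cldn7. In these windows the letters TTCNNNGAA, the core shared by STAT and BCL6 motifs, occurred in 1 of 6 windows (1 of the 2 starts of Cldn7) against 8.30% of all 32851 windows, and TTCCTAGAA in none against 0.411%. The E-box CACCTG, a motif known from epithelial promoters, stood in 4 of the 6 windows of these genes and in 20.2% of all windows. It was chosen after these sequences had been seen, which fixed its count here, so nothing is read from that difference. Both strands were searched, and a match describes letters and not a bound site. The 4 windows with CACCTG are shown because their genes were listed together in female fat. Capitals mark CACCTG or its complement CAGGTG and, in Cldn7, TTCTGAGAA.
Krt8 (chr15:102004293-102004592, minus strand): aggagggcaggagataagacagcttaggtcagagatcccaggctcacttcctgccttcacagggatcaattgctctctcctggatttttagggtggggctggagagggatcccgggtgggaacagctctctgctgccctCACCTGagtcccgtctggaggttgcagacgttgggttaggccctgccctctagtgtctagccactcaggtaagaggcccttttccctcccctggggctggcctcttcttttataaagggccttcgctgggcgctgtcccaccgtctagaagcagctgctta
Krt7 (chr15:101412153-101412452, plus strand): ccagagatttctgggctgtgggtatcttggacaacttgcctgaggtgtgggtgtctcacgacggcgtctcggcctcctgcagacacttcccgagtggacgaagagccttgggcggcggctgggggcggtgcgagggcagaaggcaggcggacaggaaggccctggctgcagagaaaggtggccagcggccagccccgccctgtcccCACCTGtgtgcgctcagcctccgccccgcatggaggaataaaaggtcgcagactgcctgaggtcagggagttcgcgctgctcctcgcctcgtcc
Krt79 (chr15:101940275-101940574, minus strand): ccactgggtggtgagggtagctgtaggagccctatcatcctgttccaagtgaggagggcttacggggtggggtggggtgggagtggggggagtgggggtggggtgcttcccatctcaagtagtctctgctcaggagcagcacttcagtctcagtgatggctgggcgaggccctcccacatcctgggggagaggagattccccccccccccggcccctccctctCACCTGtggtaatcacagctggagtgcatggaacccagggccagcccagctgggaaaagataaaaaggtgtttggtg
Cldn7 (chr11:69965171-69965470, plus strand): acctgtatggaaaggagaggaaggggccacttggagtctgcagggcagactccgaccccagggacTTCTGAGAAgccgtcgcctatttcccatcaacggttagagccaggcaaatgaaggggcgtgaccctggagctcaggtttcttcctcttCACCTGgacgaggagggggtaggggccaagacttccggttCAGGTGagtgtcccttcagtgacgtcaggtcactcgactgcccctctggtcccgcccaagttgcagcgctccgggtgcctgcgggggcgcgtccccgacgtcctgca
Counted from the annotated start, CACCTG began at position -111 in Krt8, -44 in Krt7, -27 in Krt79, and -97 and -57 in Cldn7.

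In female inguinal fat the luminal keratin genes Krt8 and Krt7 and the casein gene Csn3 fell. Krt8, the type II keratin of simple epithelia, had 3531, 4284, 4334 and 5703 normalized counts in the AKO libraries, against 10079, 11879.9, 8473 and 10238 in the WT libraries. The lowest WT library lay above the highest AKO library. Krt8 fell 2.28-fold (log2 fold -1.19 ± 0.15 SE, edgeR quasi-likelihood test adjusted over the 13546 genes the authors tested, adjusted p = 0.00178). Krt7, which encodes a keratin of ductal and glandular epithelia, had 1236, 1089, 1681 and 1909.96 counts in AKO, against 3194, 3917, 3175 and 3398 in WT libraries. It fell 2.31-fold (-1.21 ± 0.17, edgeR adjusted p = 0.00339), again without overlap. Csn3, which encodes the casein that stabilises milk micelles, had 1117, 1527, 1356 and 1539 counts in AKO, against 2724, 1974, 1972 and 2104 in WT libraries. It fell 1.58-fold (-0.66 ± 0.13, edgeR adjusted p = 0.0284). Its call ended without any 1 of 7 libraries, namely AKO replicates 1, 2 and 3 and each WT replicate (adjusted p from 0.0504 to 0.0702), with log2 folds from -0.54 to -0.71.

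The other 3 genes were lower in the authors' deposited table but did not pass the edgeR test. Cldn7, a claudin of epithelial tight junctions, had 182, 338, 341 and 283 counts in AKO, against 588, 473, 468 and 425 in WT libraries (log2 fold -0.76 ± 0.19 SE, edgeR adjusted p = 0.0740). The groups did not overlap. Trps1, a GATA-type zinc-finger repressor gene active in mammary luminal cells, had 1180.4, 1214, 1219 and 1848 counts in AKO, against 1974, 2037, 1819 and 2083 in WT libraries (-0.53 ± 0.14, edgeR adjusted p = 0.0847). Here AKO replicate 4 reached the WT range. Without it the log2 fold was -0.72 and the edgeR adjusted p was 0.00157. Without any other single library Trps1 did not pass (edgeR adjusted p from 0.152 to 0.247). Krt79, a type II keratin known from hair follicles and sebaceous ducts, had 49.7, 25.8, 42.5 and 70.9 counts in AKO, against 97.1, 98.5, 73.3 and 159 in WT libraries (-1.19 ± 0.32, edgeR adjusted p = 0.0959). Its highest AKO and lowest WT library nearly met. With 1 library left out, it passed only without AKO replicate 4 (-1.47, adjusted p = 0.0359), while without WT replicate 4 the log2 fold was -0.92 (adjusted p = 0.331).

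The edgeR test thus called 3 of 6 genes lower, where its calls amount to 2.40% of the genes the authors tested, 0.849% lower and 1.55% higher. The 6 were already in the authors' list, and of the 790 genes held edgeR called 41.1%, 14.6% lower and 26.6% higher. That split of 210 higher and 115 lower over all genes turned to 125 higher and 315 lower with DESeq2 size factors taken from the table and to 153 higher and 270 lower with TMM factors, where 5 of the 6 were called lower. The authors' deposited table called all 6. The AKO and WT libraries did not overlap for 5 of the 6, but the same held for 89.1% of the genes in the table, which the authors had selected. The edgeR count went to 2 without any 1 of the 7 libraries on which Csn3 depended, and to 5 without AKO replicate 4. That library was the highest AKO library for 5 of the 6 genes, all but Cldn7. The median authors' log2 fold was -0.75 over these 6 genes, -0.56 over the 356 listed genes that were lower and 0.30 over the whole list. The lower depth of WT libraries moved with genotype, and its part in these results was not tested.

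**Figure D1:**
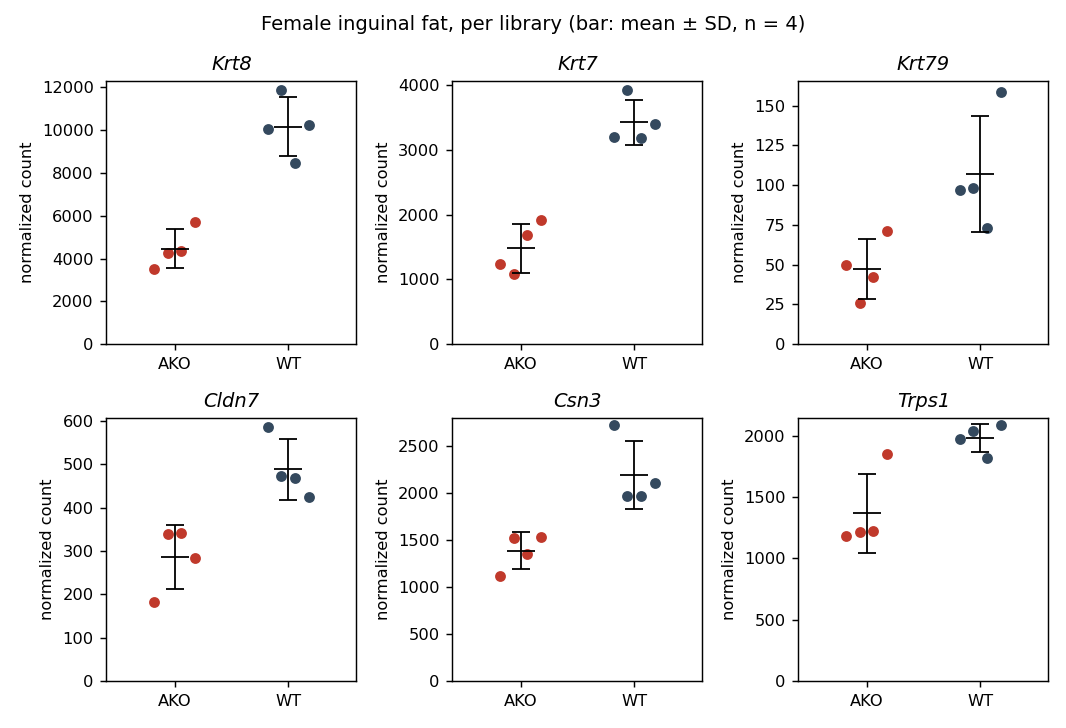
Normalized counts (counts divided by the authors' size factor) of the 6 genes held for female inguinal fat, 1 point per library, with AKO left of WT, the mean as a line and the SD as a bar (n = 4 each). Krt8, Krt7, Csn3, Cldn7 and Krt79 do not overlap between groups, and 1 AKO library of Trps1, at 1848, lies among the WT libraries.

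Divided by the length of the longest principal GENCODE transcript, Krt8 was at 2279 ± 462 normalized counts per kilobase in AKO and 5193 ± 711 in WT (SD, n = 4 each). Csn3 came next, at 868 ± 123 in AKO and 1374 ± 225 in WT. Krt7 was at 361 ± 93.3 in AKO and 836 ± 84.5 in WT, Cldn7 at 214 ± 55.7 in AKO and 366 ± 52.1 in WT, and Trps1 at 139 ± 32.7 in AKO and 201 ± 11.7 in WT. Krt79 stood lowest, at 22.5 ± 8.92 in AKO and 51.0 ± 17.4 in WT. This order of levels per length was the same in both genotypes. The order of Csn3 and Krt7 depends on the transcript chosen, 1596 bases for Csn3 and 4094 for Krt7. Before division Krt7 was the higher, at 1479 against 1385 mean normalized counts in AKO and 3421 against 2193 in WT. The depth of sequencing per gene differed as widely, from 39 to 162 raw counts per library for Krt79 and from 4048 to 11697 for Krt8.

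The sizes of the differences were compared within libraries, where scaling cancels, by the log2 ratio of each pair of genes. The ratio of Krt8 to Trps1 averaged 1.71 ± 0.13 in AKO and 2.35 ± 0.14 in WT libraries (SD, n = 4 each), a difference of -0.64 without overlap (two-sided exact permutation test, p = 0.0286, the smallest the design allows). That of Krt7 to Trps1 averaged 0.11 ± 0.26 in AKO and 0.79 ± 0.12 in WT libraries, a difference of -0.68 (exact permutation p = 0.0286). Neither passed adjustment over the 16 pairs compared in both sexes (adjusted p = 0.229 for each), and no other pair did. At the smallest p the design allows, a pair could pass only if many other pairs stood there too. Nothing is therefore read from this miss. The ratio of Krt8 to Csn3 was 1.68 ± 0.16 in AKO and 2.22 ± 0.30 in WT libraries, and that of Krt7 to Csn3 was 0.07 ± 0.38 in AKO and 0.65 ± 0.31 in WT libraries, with overlap in both (exact permutation p = 0.0571 and 0.0857, adjusted p = 0.229 and 0.274). The ratio of Krt7 to Krt8 was -1.61 ± 0.26 in AKO and -1.57 ± 0.10 in WT libraries (exact permutation p = 0.857). This comparison was added after the values were seen.

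Covariation was measured on deviations from each genotype's mean of log2(normalized count + 1), since genotype splits the 8 libraries into separate clusters. Across the 15 female pairs Pearson's r ran from -0.41 to 0.84 with a median of 0.45, where the median over all 311655 gene pairs of the table was 0.01 and 19.1% of all pairs reached 0.45. Krt8 and Trps1 were the closest pair (r = 0.84, two-sided exact permutation within genotype, p = 0.00868, Spearman's rho = 0.90, exact permutation p = 0.00694). Krt7 and Krt8 came lower (r = 0.73, exact permutation p = 0.0573, rho = 0.79, p = 0.0139). Csn3 and Cldn7 lay between them (r = 0.77, exact permutation p = 0.0608, rho = 0.71, p = 0.0677), whereas Cldn7 and Krt79 had r = -0.41 (exact permutation p = 0.425, rho = -0.45, p = 0.330). None passed adjustment over the 16 pairs of both sexes, with a lowest adjusted p of 0.139 for r and 0.111 for rho. Without the 2 libraries farthest from the median of the first gene, r was 0.62 for Krt8 and Trps1, 0.78 for Krt7 and Krt8, 0.49 for Csn3 and Cldn7, and 0.33 for Krt7 and Trps1, which stood at 0.71 over all 8. By the same removal r went from 0.63 to -0.02 for Krt7 and Krt79 and from 0.69 to 0.18 for Trps1 and Krt79. It went from 0.47 to -0.02 for Krt8 and Csn3 and from 0.38 to -0.07 for Krt8 and Cldn7, but rose from 0.12 to 0.58 for Krt7 and Cldn7. Without AKO replicate 4 alone, r of Krt7 and Krt8 was 0.48.

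**Figure D2:**
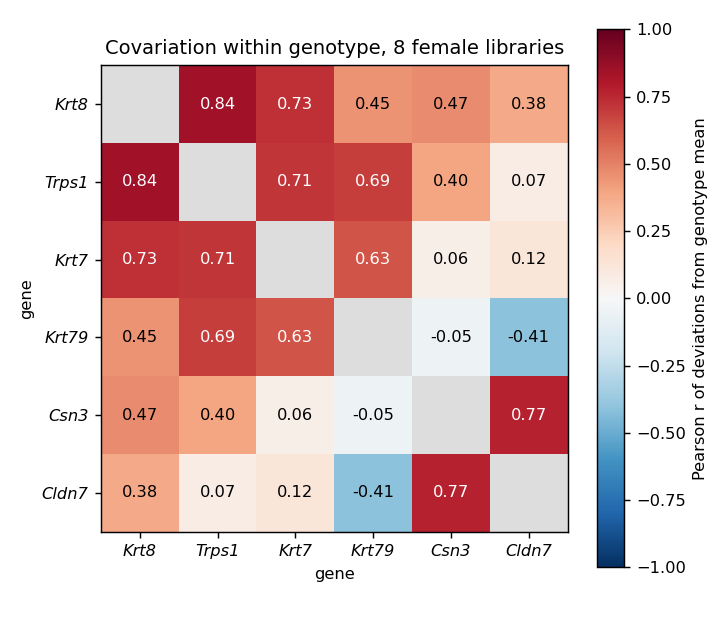
Pearson r between each pair of the 6 genes, computed on deviations from the genotype mean over 8 female inguinal libraries, with red for positive and blue for negative values. Krt8, Trps1 and Krt7 have r of at least 0.71 with one another, and Cldn7 reaches 0.77 with Csn3.

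By the same measure over the 8 female libraries, the 5 genes of the table closest to Krt8 were 5730559C18Rik (r = 0.92), Rasef (0.90), Esyt2 (0.89), Arhgap24 (0.88) and Lpcat4 (0.87). All but Arhgap24 were lower in AKO in the authors' deposited table. Trps1 ranked ninth and Krt7 20th of 789 genes in likeness to Krt8, while Cldn7 ranked 156th. These ranks are descriptions over libraries that share a protocol and a scaling.

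Further genes came from 6 lists of luminal, milk protein, basal, junction, skin and other keratin genes, 155 genes in all, chosen with earlier results of these data known. A gene on these lists need not come from epithelium alone in bulk fat. In female inguinal fat the authors listed 15 of them besides the genes above, 12 lower and 3 higher in AKO, with a median authors' log2 fold of -0.62 against 0.30 for the whole list. The edgeR test called 2 lower and 3 higher. Those lower were Lsr, an angulin of tricellular junctions, at -0.81 ± 0.14 SE (edgeR adjusted p = 0.0156) and Esrp2, an epithelial splicing regulator, at -0.87 ± 0.20 (adjusted p = 0.0485). The call of Esrp2 ended without any 1 of the libraries other than AKO replicate 4 (adjusted p from 0.0899 to 0.157), and that of Lsr without WT replicate 1, 2 or 3 (0.0510 to 0.0545). The 3 that rose were Jup (0.40 ± 0.07, adjusted p = 0.0107), Mfge8 (0.72 ± 0.08, adjusted p = 0.00138) and Vim (0.67 ± 0.12, adjusted p = 0.0180). Their mean normalized counts in AKO and WT were 6368 and 4830 for Jup, 14234 and 8648 for Mfge8, and 34322 and 21508 for Vim. Which cells made them was not tested, so their rise is not read as a rise of epithelium. The call of Vim ended without WT replicate 1, 2 or 3 (adjusted p from 0.0578 to 0.0699) and with table totals as library sizes, and that of Jup with DESeq2 size factors (0.108) and table totals (0.506).

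Among the genes below the threshold, the milk-fat gene Btn1a1 had a log2 fold of -1.04 ± 0.26 (edgeR adjusted p = 0.0698), the folate receptor gene Folr1 -1.10 ± 0.29 (0.0886) and Lcn2 -0.55 ± 0.14 (0.0738). The basal regulator Trp63 was at -0.88 ± 0.20 (edgeR adjusted p = 0.0537), the luminal factor Tfap2c at -0.63 ± 0.18 (0.125) and the claudin gene Cldn8 at -0.69 ± 0.16 (0.0605). The defining epithelial genes Epcam, Cdh1, Krt18, Krt5 and Krt14 were not in the female table, so no value for them is used here.

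**Figure D3:**
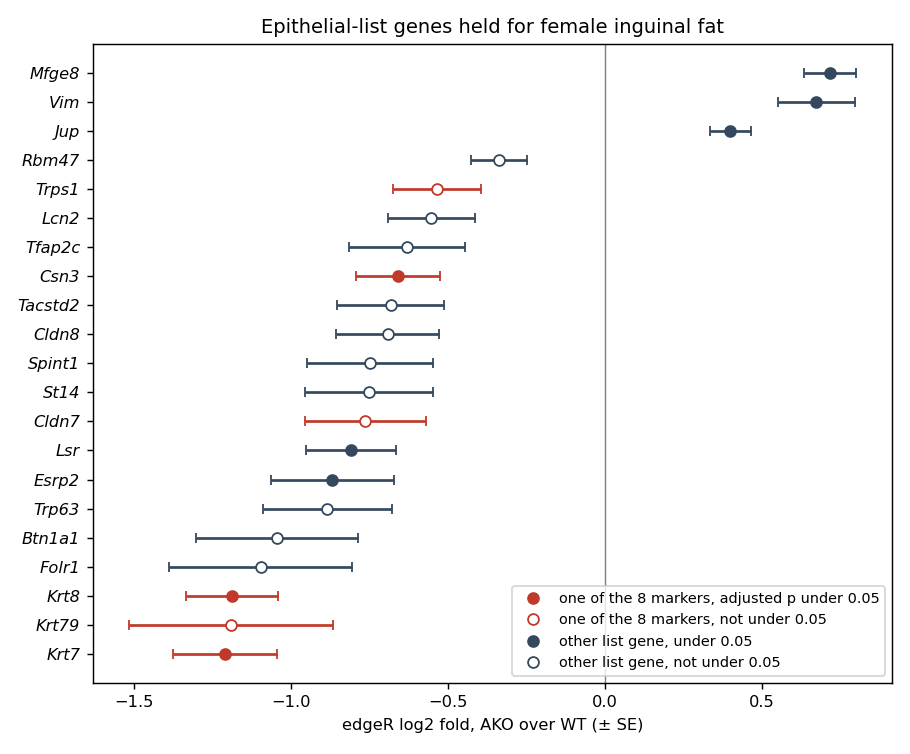
The edgeR log2 fold of AKO over WT with its SE for the 21 epithelial-list genes held for female inguinal fat, red for the chosen markers and dark blue for other list genes, filled where the adjusted p was under 0.05. All lie below 0 except Mfge8, Vim and Jup, and Krt8, Krt79 and Krt7 lie lowest.

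With the authors' size factors, the summed adipocyte and mesothelial markers of the same female libraries were higher in AKO without overlap, and the immune sums overlapped. Of 18 adipocyte genes the table held 4, with a summed level of 543741 to 569939 normalized counts in AKO and 426032 to 481589 in WT libraries, where the edgeR test called Adipoq (log2 fold 0.49 ± 0.08 SE, adjusted p = 0.0123) and not Lpl, Car3 or Adrb3. Car3 and Lpl, neither of them called, made up most of that sum. Adrb3 went the other way, at -0.50 ± 0.14 (edgeR adjusted p = 0.115). With table totals as library sizes the log2 fold was 0.27 for Adipoq (adjusted p = 0.0892), 0.20 for Lpl and 0.02 for Car3. That of Adrb3 was then -0.71, a call lower (edgeR adjusted p = 0.0156). Of 12 mesothelial genes it held 2, with sums of 1388 to 2531 in AKO and 821 to 1198 in WT libraries, and both Cldn15 (0.87 ± 0.18, edgeR adjusted p = 0.0314) and Lrrn4 (1.13 ± 0.24, adjusted p = 0.0361) rose. Of 14 immune genes it held 3, with sums of 17178 to 23526 in AKO and 13821 to 17225 in WT libraries, and Csf1r rose (0.53 ± 0.12, edgeR adjusted p = 0.0481). These calls ended in most fits with 1 library left out: that of Cldn15 without any library but AKO replicate 4 (adjusted p from 0.0663 to 0.104), that of Lrrn4 without any but AKO replicates 3 and 4 (0.0689 to 0.119), and that of Csf1r without any but AKO replicate 3 (0.0505 to 0.159) and under each other scaling (0.0916 to 0.565). The call of Cldn15 also ended with DESeq2 size factors (edgeR adjusted p = 0.0598) and table totals (0.0892), and that of Lrrn4 with table totals (0.0794). The part of these shifts in the epithelial values was not tested.

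In male inguinal fat the genes held were Krt79, a skin-type keratin gene, and Eppk1, the gene of a keratin-binding plakin, and Krt7, Krt8, Csn3, Cldn7 and Trps1 were not listed. Krt79 had 20.9, 30.4, 32.9 and 32.2 normalized counts in AKO, against 88.6, 76.4, 54.3 and 56.4 in WT libraries. It fell 2.31-fold (log2 fold -1.21 ± 0.22 SE, edgeR adjusted over 12554 genes tested, adjusted p = 0.0108). Eppk1, whose product epiplakin binds keratin filaments, had 21.6, 17.8, 13.2 and 22.9 counts in AKO, against 53.7, 42.5, 69.8 and 68.6 in WT libraries. It fell 3.06-fold (-1.61 ± 0.23, edgeR adjusted p = 0.00294). In both genes the AKO libraries lay below every WT library, and 90.8% of the genes in this selected table likewise had no overlap. Both were called lower, where edgeR calls amount to 5.19% of the genes the authors tested, 2.27% lower and 2.92% higher. Of the 1074 genes held, all preselected by the authors, edgeR called 60.6%, 26.5% lower and 34.1% higher, so a call was common among them. The split over all genes, 366 higher and 285 lower, turned to 257 higher and 485 lower with DESeq2 size factors taken from the table, where both genes were still called. Both are low in counts, from 25 to 70 raw counts per library for Krt79 and from 10 to 81 for Eppk1.

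**Figure D4:**
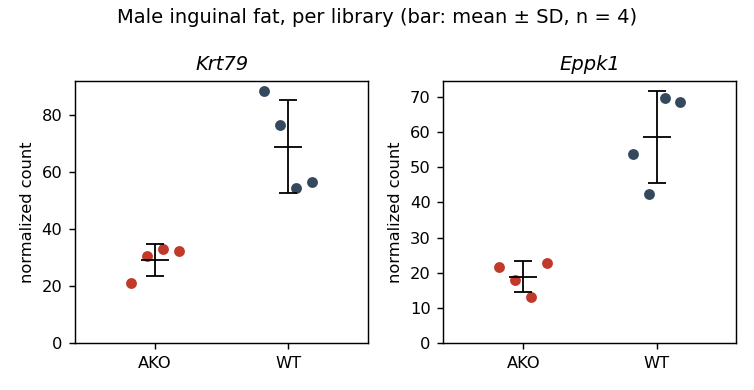
Normalized counts of Krt79 and Eppk1 in male inguinal fat, 1 point per library, AKO left of WT, with mean and SD (n = 4 each). The AKO libraries sit at 32.9 or below and the WT libraries at 42.5 or above.

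Within genotype Krt79 and Eppk1 had a negative correlation over the 8 male libraries that missed the threshold (r = -0.63, two-sided exact permutation p = 0.130, rho = -0.62, p = 0.153, adjusted p = 0.345 for r). Without the 2 libraries farthest from the median of Krt79, r was -0.47. The genes closest to Krt79 there were Lsm2 and Commd2 (r = 0.91 each), Cers6 (0.87), Prps2 (0.86) and Neil2 (0.84), none of them from the epithelial lists. Eppk1 ranked 1018th of 1073. Of the 155 epithelial-list genes the male table held 4 others, of which Esr1 (log2 fold 1.74 ± 0.14 SE, edgeR adjusted p = 6.90e-05), Mfge8 (0.74 ± 0.13, adjusted p = 0.0105) and Jup (0.63 ± 0.14, adjusted p = 0.0258) rose, and Rbm47 was at -0.51 ± 0.14 (adjusted p = 0.0701). The call of Jup ended without AKO replicate 1, 2 or 3 or WT replicate 4 (0.0650 to 0.0806).

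In the same male libraries the adipocyte markers held, 3 of 18, summed to 46942 to 57028 normalized counts in AKO and 64038 to 82506 in WT, where Pnpla2 fell (log2 fold -0.60 ± 0.13 SE, edgeR adjusted p = 0.0220) and Plin1 and Cebpa did not pass. The call of Pnpla2 ended without AKO replicate 2 or 3 or WT replicate 1 or 4 (0.0577 to 0.0840). The 1 immune marker of 14, Cd14, had 255 to 338 counts in AKO and 349 to 441 in WT libraries and did not pass. The 1 mesothelial marker of 12, Lrrn4, had 100.4 to 139 counts in AKO and 24.2 to 40.5 in WT libraries and rose (1.64 ± 0.17, edgeR adjusted p = 0.000437). The part of these cells in the Krt79 and Eppk1 values was not tested.

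Krt79 was the one gene of the 8 with counts in both sexes. Its log2 fold of AKO over WT was -1.19 in females and -1.21 in males, and the sex by genotype test gave a difference of 0.02 ± 0.40 SE (female minus male, edgeR adjusted p = 0.975 over the 290 genes held in both tables, of which 1.72% were called). That error leaves room for a sizeable difference in either direction. DESeq2 gave 0.04 ± 0.44 and no call. Sex cannot be told apart from the set of animals. The 290 genes had all been called by the authors in each sex, so a gene called in 1 sex alone could not enter.

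For perigonadal fat all values are the authors'. Krt79 had a log2 fold of -1.68 ± 0.15 SE in the authors' deposited table (adjusted p = 9.61e-25) and Eppk1 -1.85 ± 0.23 (adjusted p = 2.94e-13), the same genes that fell in inguinal fat of these mice. The authors' deposited table gives Krt7 -1.09 ± 0.21 (adjusted p = 5.19e-06) and Krt14, the basal keratin gene, -1.23 ± 0.29 (adjusted p = 0.000567). Their mean normalized counts in the authors' deposited table were 163 for Krt79, 62.1 for Eppk1, 209 for Krt7 and 54.0 for Krt14. All 4 were lower, where the authors called 5.46% of 13361 genes tested lower, and 49.0% of the listed genes were lower. Their median log2 fold was -1.45, against -0.49 over all listed genes that were lower and 0.21 over the whole list of 1488. Eppk1 shares 679 bases with BC024139 on the same strand, which was lower in the authors' deposited table too (adjusted p = 0.00718), so their reads may overlap.

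**Figure D5:**
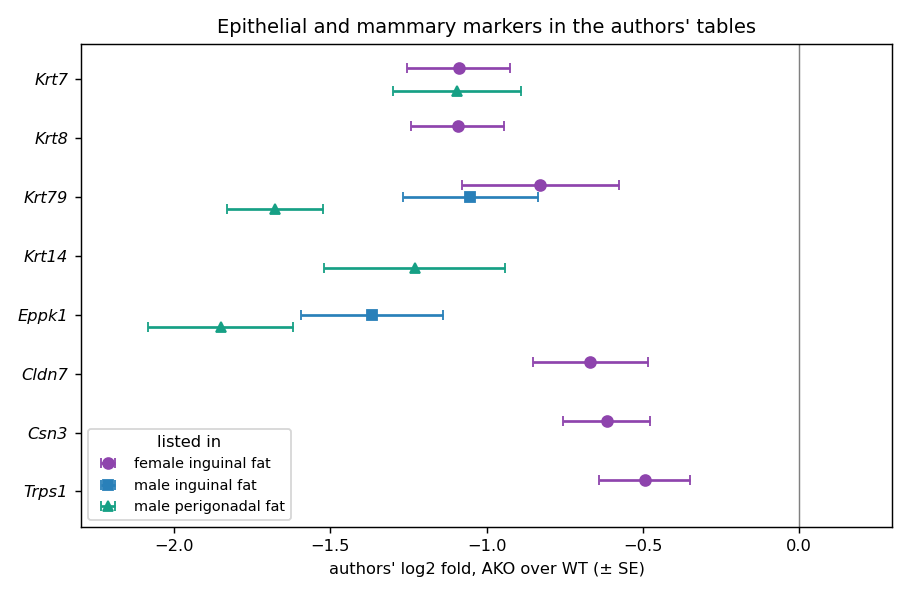
The authors' log2 fold of AKO over WT with its SE for each of the 8 genes, with circles for female inguinal, squares for male inguinal and triangles for male perigonadal fat. A missing symbol means the gene was not listed, and all 12 values lie below 0. Where counts were held, these folds were smaller in size than those of edgeR.

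Side by side, the authors' deposited tables give Krt79 log2 folds of -0.83 ± 0.25 in female inguinal, -1.05 ± 0.22 in male inguinal and -1.68 ± 0.15 in male perigonadal fat. Eppk1 was at -1.37 ± 0.23 in male inguinal and -1.85 ± 0.23 in male perigonadal fat in the authors' deposited tables, and Krt7 at -1.09 ± 0.16 in female inguinal and -1.09 ± 0.21 in male perigonadal fat. For those of these genes with counts, the deposited folds were smaller in size than the edgeR folds. For Krt79 edgeR gave -1.19 in female and -1.21 in male inguinal fat, and for Eppk1 -1.61 in male inguinal fat. The order of the deposited folds is therefore not read as an order of response between sexes or depots. Differences between depots were not tested, since no perigonadal counts per library were used.

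Among the 155 epithelial-list genes, the authors' deposited table for perigonadal fat held 13 others, 9 lower and 4 higher. Those lower included the basal genes Trp63 (log2 fold -1.02 ± 0.25, adjusted p = 0.000942), Cdh3 (-0.95 ± 0.23, 0.00108) and Mylk (-0.41 ± 0.14, 0.0283). With Krt14 these were the 4 of 15 basal genes in the authors' deposited table, all lower. Of the 5 luminal genes listed there 3 were lower and 2 higher, and of all genes listed there 49.0% were lower. In the authors' deposited table Krt19, a keratin of ducts and mesothelium, was at -1.05 ± 0.20 (adjusted p = 8.19e-06), Evpl at -0.66 ± 0.19, Lsr at -0.53 ± 0.17, Tspan8 at -0.81 ± 0.27, Folr1 at -0.91 ± 0.27 and Krt36 at -1.05 ± 0.28. Higher in the authors' deposited table were Prlr (1.96 ± 0.13), Esr1 (1.37 ± 0.20), Jup (0.54 ± 0.09) and Mfge8 (0.53 ± 0.14). Of 12 mesothelial genes 3 were listed, all lower in the authors' deposited table, namely Krt19, Lrrn4 (-0.91 ± 0.20) and Igfbp6 (-0.57 ± 0.17). Of 20 epididymal genes none was listed in any of the 3 tables. The 7 listed adipocyte genes were lower there as well, such as Pnpla2 at -0.68 ± 0.08, and the 4 listed immune genes were higher, such as Cd68 at 0.58 ± 0.12, in the authors' deposited table. The part of mesothelium or of these cells in the keratin values was not tested.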

How the data were processed

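Poly(A) RNA was extracted (Trizol, RNeasy) and made into TruSeq Stranded mRNA libraries, per the labels' protocols. Per the submitters' processing notes the authors used STAR, DESeq2 and mm10. Tool versions, counter, strandedness and annotation are not stated there, so overlapping genes (Csn3, Krt7 and Krt8 on the opposite strand, Eppk1 on the same) may share reads.

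The deposited raw read counts cover only listed genes (790 female, 1074 male). The authors' deposited comparisons hold, per the file headers, a mean normalized signal, a log2 fold with its SE, and raw and adjusted p-values. Where counts allowed a check (790 and 1074 genes) every log2 fold ran as AKO over WT. The same is assumed for perigonadal fat. Size factors were solved from counts and deposited means (largest misfit 4.79e-08%), and the number of genes tested from p and adjusted p.

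Counts were fitted with edgeR 4.0.16 (quasi-likelihood, legacy mode, R 4.3.3), these size factors as offsets, no covariate or filter, and Benjamini-Hochberg adjustment over the number tested at 0.05. Dispersions rest on selected genes. DESeq2 1.42.0, other scalings, a mean count of 10, a replicate block, left-out libraries, a pseudocount of 5, Spearman and an adjusted p of 0.01 were alternatives. Exact permutations used scipy 1.17.1. Labels give separate animals.

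The 8 genes, the lists and the tests were chosen with earlier results of these data known. Named genes are the 8, up to 4 per list and table by lowest p and those completing a count, the 5 closest to the most abundant of the 8 in each table, Bcl6 and Adipoq. Liver was not used.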

Additional observations from a re-analysis of the deposited data

Results flagged for a closer look

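Trps1 in AKO replicate 4 of female inguinal fat, at 1848 normalized counts, lay far above the other 3 AKO libraries (1180.4 to 1219). The gap was 0.942 of the group's range, above the critical value of Dixon's test for 4 samples. It was the only one of 16 groups of 4 libraries so marked, and chance marks about 1 in 20.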

How the results depend on the processing

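The log2 folds of the 7 genes with counts stayed below 0 in all 128 combinations of gene, sex and setting in inguinal fat. Calls moved in females. The count of 3 went to 5 with TMM factors, DESeq2 size factors or table totals as library sizes (Cldn7 and Trps1 added), to 6 with the DESeq2 Wald test and with the authors' adjusted p, to 2 at an adjusted p under 0.01, and ranged from 2 to 5 with 1 library left out. The 3 scalings lowered the median log2 fold of the female table to 0.21, 0.15 and 0.09, against 0.30, which moves each gene down by construction. With the replicate block 2 female genes were called (Krt8 and Krt7), and the count over all genes was 132 against 325 in females and 772 against 651 in males. Numbers were not taken to pair the animals, since not every pair's correlation was over 0.1: same-numbered libraries correlated from -0.30 to 0.18 in females and from 0.07 to 0.26 in males, and not every library was closest to its own number. In males the count of 2 went to 1 at an adjusted p under 0.01 (Krt79 lost) and stayed 2 under the block and with any library left out. The sex difference of Krt79 changed sign, at -0.034 with table totals, -0.0040 with the replicate block and from -0.26 to 0.30 with 1 library left out, none past the threshold. The median r in females ranged from 0.21 to 0.56 with 1 library left out and was 0.45 to 0.52 otherwise, and in males from -0.82 to -0.55 and from -0.69 to -0.62. The perigonadal count of 4 held at 0.01 and at 1.5-fold. Causes were not tested. Low counts limit Krt79 and Eppk1.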
